A study of Mus musculus with 9 samples.

Results

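The matrix metalloproteinases (Mmp genes), the ADAMTS proteases (Adamts genes) and their tissue inhibitors (Timp genes) were followed in 3 lines of mouse embryonic fibroblasts that differ in the O-GlcNAcase gene Oga. Members were all probe sets whose platform symbol was Mmp with a number and an optional letter, Adamts with a number, or Timp1 to Timp4. They were 70 of 45101 probe sets and stood for 37 of 18193 genes with a symbol of their own: 18 Mmp, 15 Adamts and 4 Timp genes. The lines were named KO (Oga knockout), Het (Oga heterozygous) and WT (wild type), each grown from a female embryo at D12.5. All 3 came from crosses between heterozygous mice. Those mice descended from floxed Oga males of background C57B1/6 and females of the strain B6129-Tgn(MMTV-Cre)1Mam, in which Cre is driven by the mouse mammary tumour virus promoter. The sources used here do not say whether the lines carried the Cre transgene. Each line was measured on 3 arrays, stated to be technical replicates, so a genotype is 1 line. The p-values below therefore set a difference between lines only against the spread of repeat arrays within the lines. They hold no spread between lines of the same genotype, and genotype cannot be told apart from any other difference between the lines.

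Matrix metalloproteinases are zinc enzymes that cut collagens, gelatins, laminins and other matrix proteins, and most are made as inactive precursors that lose a propeptide. ADAMTS proteases carry thrombospondin-type repeats, and different members trim procollagens, cut proteoglycans of the aggrecan family or act on microfibril proteins. TIMPs bind the active site of these enzymes and block it. Fibroblasts are a major source of all 3 groups, and O-GlcNAcase removes O-linked N-acetylglucosamine from nuclear and cytoplasmic proteins.

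Values were the deposited ones, on a log2 scale, and 1 unit is a 2-fold difference. The 9 arrays correlated at 0.989 to 0.999 with each other, and their medians lay between 6.87 and 6.95. The main Oga probe set read 6.03, 6.08 and 6.08 on KO arrays, 11.16 on each of the 3 Het arrays, and 11.89, 11.93 and 11.95 on WT arrays. All 15 genes of a fibroblast list passed the low-value filter described next, which uses the mean of the 9 arrays and not each line. Between KO and WT the list median was -0.08. In that comparison 9 of the 15 had a limma adjusted p below 0.05, against 53.1% of all genes. By the rule given below Pdgfra was called lower (KO minus WT -2.55) and 14 were not called. Col1a1 read 14.87 in KO, 14.89 in Het and 14.95 in WT on average. Probe sets whose mean of the 9 arrays fell among the lowest 40%, which is below 6.22, were filtered out. Of the members 50 probe sets and 27 genes passed it, namely 12 Mmp, 12 Adamts and 3 Timp genes, each represented by its probe set with the highest mean. A gene was called when its limma adjusted p, over all 12962 genes, was below 0.05 and its difference reached 2-fold.

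Most of these genes lay within 1.5-fold in the 3 lines, though a smaller share of them than of all genes. In the comparison of KO with WT, Mmp3 and Adamts3 fell, Mmp9 rose and 24 of the 27 measured genes were not called. Of all genes 3.56% were called in this comparison, 0.988% as higher and 2.58% as lower in KO. At the adjusted p threshold alone 9 members were higher and 7 lower in KO, against 21.6% and 31.5% of all genes. Bulk arrays cannot tell fewer cells of a type from less RNA per cell. The median difference of the 27 genes was -0.02, against -0.03 over all genes. With the sign left aside the median was 0.24, against 0.15 over all genes. In 21 of the 27 genes every pair of lines lay within 1.5-fold, a smaller share than the 89.0% of all genes. The other 6 were Mmp3, Mmp9, Mmp17, Adamts3, Adamts12 and Adamts15.

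**Figure D1:**
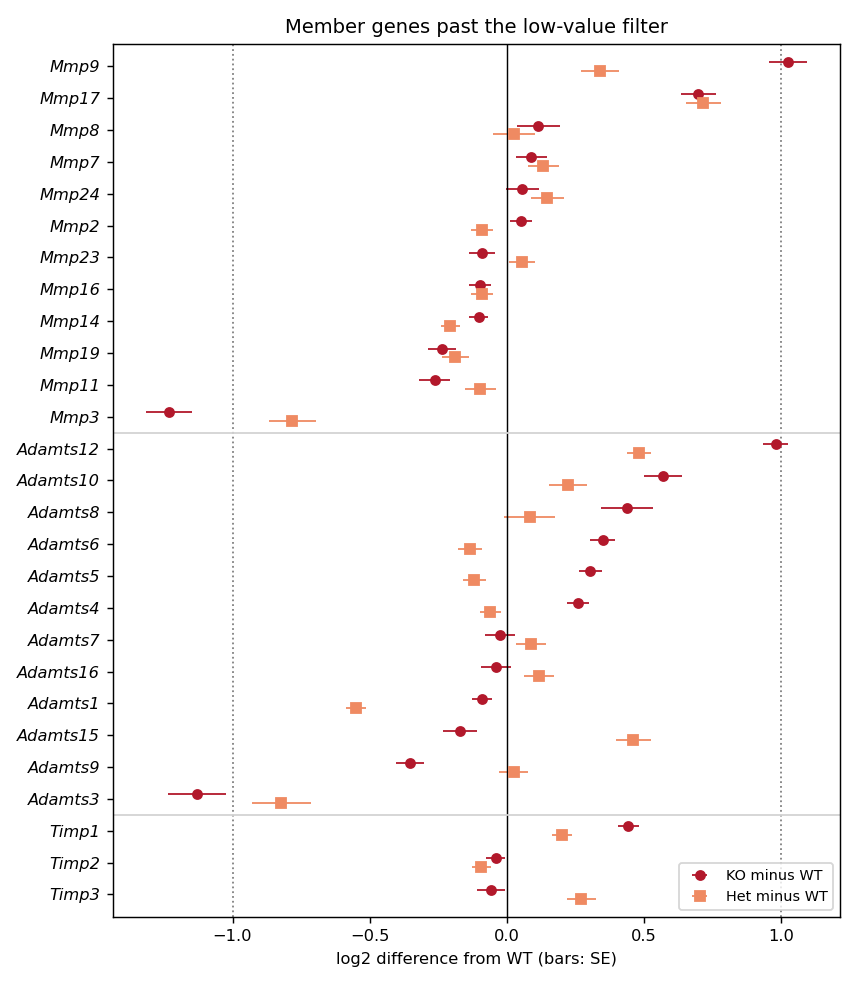
Log2 difference from WT (x axis, bars are SE) for the 27 member genes past the low-value filter (rows), with KO minus WT as circles and Het minus WT as squares; dotted lines mark 2-fold. Mmp9 at 1.03 lies past the line on the right, Mmp3 at -1.23 and Adamts3 at -1.13 lie past the line on the left, and no square reaches either line.

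Mmp3 encodes stromelysin 1, which cuts proteoglycans, laminin and fibronectin and activates other metalloproteinases. It read 6.33, 5.99 and 6.31 on KO arrays, 6.59, 6.69 and 6.69 on Het arrays, and 7.52, 7.33 and 7.47 on WT arrays. The lines did not overlap, with KO lowest and WT highest. Mmp3 fell in KO by a log2 difference of -1.23 ± 0.085 from WT (SE, 3 arrays a line, limma adjusted p = 3.9e-07), a fold size of 2.35. The KO mean of 6.21 was just under the low-value limit. Het was lower than WT by -0.78 ± 0.085 (limma adjusted p = 6.9e-05), short of 2-fold, and KO lower than Het by -0.45 ± 0.085 (limma adjusted p = 0.0011). Only 1 probe set measured Mmp3.

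Mmp13 encodes collagenase 3, the main collagenase of rodent fibroblasts and cartilage. Its single probe set was below the filter, and it was tested in a fit over all 45037 probe sets other than controls. It read 4.89, 4.78 and 4.49 on KO arrays, 5.56, 5.58 and 5.67 on Het arrays, and 6.43, 6.10 and 6.29 on WT arrays. As for Mmp3, the 3 lines were separated in the order KO, Het, WT from low to high. In that fit Mmp13 fell in KO, with a difference in deposited values from WT of -1.55 ± 0.11 (limma adjusted p = 1.9e-06), and the Het difference of -0.67 ± 0.11 stayed under 2-fold (limma adjusted p = 0.0016). Every Mmp13 value in KO and Het, and 1 of the 3 in WT, was under the low-value limit, so these are differences between low signals and their size is not a measured fold of transcript. In the fit over all probe sets 4 of the 70 members were called between KO and WT, against 1.86% of all probe sets: Mmp3, Mmp13 and Adamts3 lower, and Mmp9 higher.

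**Figure D2:**
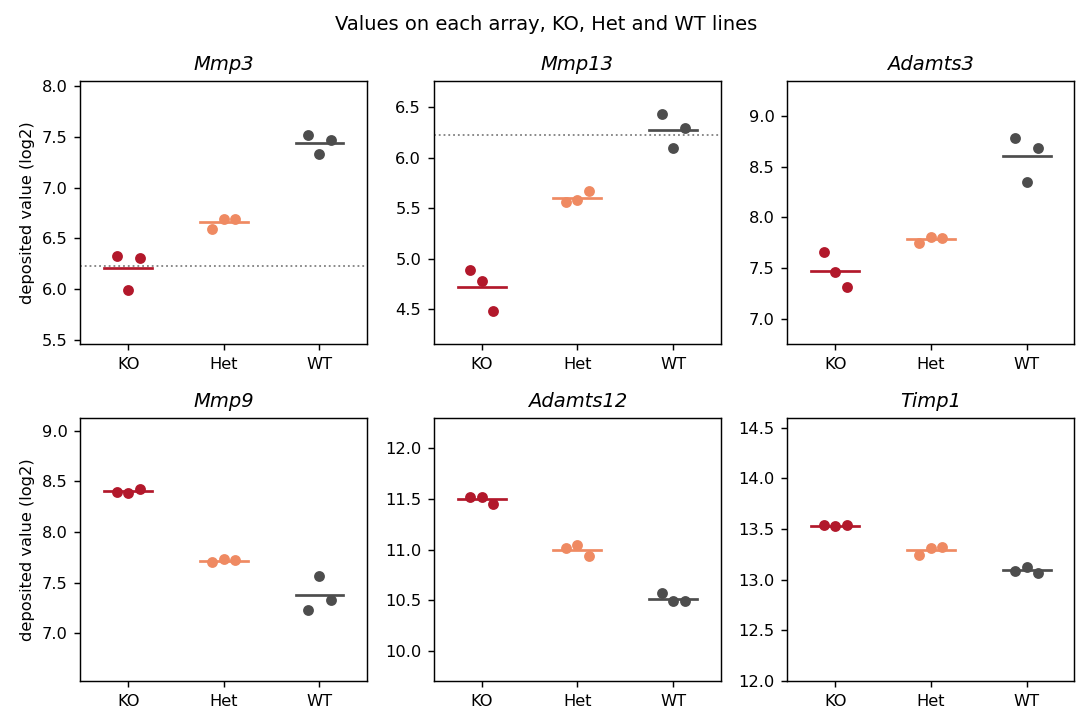
Deposited log2 values (y axis) of 6 genes on each array of the KO, Het and WT lines (points), with the mean of each line as a bar; each panel spans the same number of log2 units, and the dotted line marks the low-value limit of 6.22. Mmp3, Mmp13 and Adamts3 are lowest in KO, while Mmp9, Adamts12 and Timp1 are highest there, and Het lies between KO and WT in all 6 panels. The panels are a selection. Among the 27 genes past the filter, 4 had KO above Het above WT on every array and 2 had the opposite order.

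Mmp3 and Mmp13 lie in a cluster of 10 Mmp genes on chromosome 9 in RefSeq assembly GRCm38.p6. Its order is Mmp13, Mmp12, Mmp1b, Mmp3, Mmp1a, Mmp10, Mmp8, Mmp27, Mmp20 and Mmp7, and 9 of the 10 had a probe set here. Besides Mmp3, Mmp7 and Mmp8 passed the filter, with values from 6.21 to 6.77 that overlapped between KO and WT. Mmp7 encodes matrilysin, a small epithelial protease, and Mmp8 the neutrophil collagenase. Mmp7 differed by 0.09 and Mmp8 by 0.12 between KO and WT, with limma adjusted p of 0.21 and 0.23. The stromelysin 2 gene Mmp10 stayed between 6.08 and 6.34 on all arrays. Mmp12, the macrophage elastase gene, read 4.28, 4.23 and 4.30 on KO arrays, 4.34, 4.30 and 4.17 on Het arrays, and 4.501, 4.42 and 4.28 on WT arrays. The interstitial collagenase genes Mmp1a and Mmp1b and the enamel protease gene Mmp20 also stayed low, from 3.91 to 4.76. Within the cluster the only called differences were those of Mmp3 and Mmp13.

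**Figure D3:**
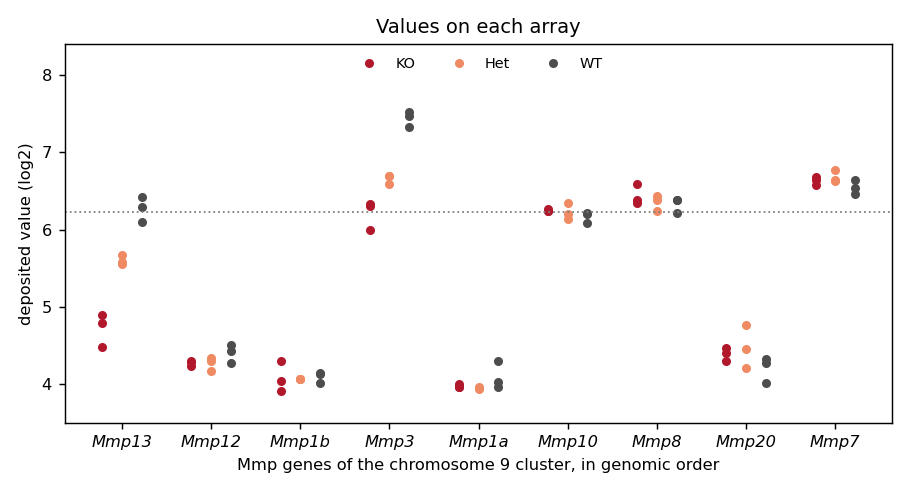
Deposited log2 values (y axis) on each array for the 9 measured Mmp genes of the chromosome 9 cluster in genomic order (x axis), with KO, Het and WT side by side; the dotted line marks the low-value limit of 6.22. Only Mmp13 and Mmp3 separate all 3 lines, and Mmp12, Mmp1b, Mmp1a and Mmp20 stay at low values throughout.

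Promoters of this cluster are known for a site of the AP-1 factors (Fos and Jun proteins) close to the start, and the letters before the start are shown for Mmp3, Mmp13 and Adamts3, which fell, and for 2 neighbours in the cluster that were not called. Mmp9 had no entry in the promoter table and is named only. Each line gives the 150 bases before the RefSeq start in GRCm38.p6, written 5′ to 3′ on the strand of the gene. Capitals mark 3 motifs, each searched on both strands. The AP-1 motif was TGANTCA, which is its own reverse complement. The TATA box was searched as TATAAA. The GC box was searched as GGGCGG, and it stands in capitals in the Adamts3 line as its other strand. No motif overlapped another in the lines shown.
Mmp3 (lower in KO), chr9:7445672-7445821, plus strand: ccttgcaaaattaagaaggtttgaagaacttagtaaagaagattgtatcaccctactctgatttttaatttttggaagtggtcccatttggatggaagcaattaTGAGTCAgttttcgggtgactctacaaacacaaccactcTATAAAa
Mmp13 (lower in KO), chr9:7272364-7272513, plus strand: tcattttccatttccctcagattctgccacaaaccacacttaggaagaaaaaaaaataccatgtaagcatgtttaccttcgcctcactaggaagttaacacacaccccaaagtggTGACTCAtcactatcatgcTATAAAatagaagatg
Mmp10 (not called), chr9:7502192-7502341, plus strand: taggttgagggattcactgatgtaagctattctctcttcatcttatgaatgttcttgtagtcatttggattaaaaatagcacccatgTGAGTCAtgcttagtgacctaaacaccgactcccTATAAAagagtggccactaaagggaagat
Mmp7 (not called), chr9:7691940-7692089, plus strand: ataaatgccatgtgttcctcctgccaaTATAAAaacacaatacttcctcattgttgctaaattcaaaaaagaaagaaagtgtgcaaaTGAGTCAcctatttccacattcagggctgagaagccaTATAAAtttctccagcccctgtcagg
Adamts3 (lower in KO), chr5:89883335-89883484, minus strand: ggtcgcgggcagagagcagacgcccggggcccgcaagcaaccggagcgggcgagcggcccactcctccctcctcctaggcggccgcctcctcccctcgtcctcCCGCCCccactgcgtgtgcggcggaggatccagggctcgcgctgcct
In these lines Mmp3 and Mmp13, which differed, and Mmp10 and Mmp7, which were not called, all hold the AP-1 letters. A promoter was found for 23 of the 37 genes, and windows of 250 bases before the start were searched. The AP-1 letters occurred in 8 of the 23 genes, all of them in the chromosome 9 cluster, against 6.75% of all 32851 promoters. The TATA letters also occurred in 8 of the 23 genes, against 12.4% of all promoters, and the GC box letters in 11, against 32.7%. The Adamts3 window holds a GC box and neither of the other motifs. These matches describe letters and not bound sites.

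Mmp9 and Mmp2 encode gelatinase B and gelatinase A, which cut denatured collagen and type IV collagen. Mmp9 read 8.39, 8.38 and 8.43 on KO arrays, 7.70, 7.73 and 7.72 on Het arrays, and 7.23, 7.57 and 7.33 on WT arrays. The lines did not overlap, and here KO was highest. Mmp9 rose in KO by 1.03 ± 0.070 over WT (limma adjusted p = 3.5e-07), a fold size of 2.04, and was higher than in Het by 0.69 ± 0.070 (limma adjusted p = 1.3e-05). This call sits at the 2-fold limit. It was lost without WT replicate 1 (0.95) and with the mean of both Mmp9 probe sets (0.998), and the second probe set alone gave 0.97. Mmp2 read 13.53, 13.59 and 13.50 on KO arrays, 13.36, 13.40 and 13.44 on Het arrays, and 13.48, 13.53 and 13.47 on WT arrays. KO and WT overlapped in Mmp2 (difference 0.05 ± 0.040, limma adjusted p = 0.31), whereas KO lay above Het by 0.14 ± 0.040 (limma adjusted p = 0.012).

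Macrophages are another source of Mmp9. All 22 genes of a macrophage list were measured and passed the adjusted p threshold between KO and WT. Of these 21 were called lower in KO, and the last was lower but short of 2-fold. The list median was -1.76, while Mmp9 rose. The summed linear signal of the list ran from 20147 to 21063 in KO, 55083 to 57826 in Het and 69398 to 71325 in WT. No marker of this list was under the low-value limit over all arrays. Their part in the Mmp9 result was not tested. In a list for smooth muscle and pericytes 4 of 14 genes rose (list median 0.57), and among the 10 without a call Pdgfrb (-0.15), Kcnj8 (-0.23) and Abcc9 (-0.09) had lower values in KO. In addition, 9 of 12 measured skeletal and cardiac muscle markers rose, with a median of 1.19. A further 4 of that list (Myod1, Myf5, Myh8 and Ttn) were below the filter. Of 8 measured chondrocyte markers 4 fell, with a median of -0.78, and 4 more (Col9a2, Matn1, Hapln1 and Cytl1) were below the filter. Of all genes 0.988% were called higher and 2.58% lower in KO than in WT. A marker can pass the filter while low in 1 line, as Myh3 did (WT mean 5.68). The part of these markers in the differences of Mmp9, Mmp3, Mmp13 and Adamts3 was not tested.

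Membrane-type metalloproteinases act at the cell surface, and Mmp14, the best known, activates pro-Mmp2. Mmp14 read 13.24, 13.21 and 13.21 on KO arrays, 13.10, 13.12 and 13.13 on Het arrays, and 13.34, 13.33 and 13.30 on WT arrays. Het differed from WT by -0.21 ± 0.035 (limma adjusted p = 0.0012), and KO by -0.10 ± 0.035 (limma adjusted p = 0.029). The other 2 Mmp14 probe sets gave Het minus WT differences of -0.46 and -0.23, and KO minus WT differences of -0.13 and -0.22. In the fit over all probe sets the KO difference did not pass at the probe set used (limma adjusted p = 0.10). Of the others, -0.13 did not pass and -0.22 did (limma adjusted p = 0.17 and 0.031). Mmp17, which encodes a membrane protease anchored by glycosylphosphatidylinositol, read 8.67, 8.55 and 8.52 on KO arrays, 8.49, 8.66 and 8.64 on Het arrays, and 7.92, 7.96 and 7.77 on WT arrays. KO and Het overlapped, and both were above every WT array. The Mmp17 differences from WT were 0.70 ± 0.064 in KO (limma adjusted p = 4.2e-06) and 0.72 ± 0.064 in Het (limma adjusted p = 1.9e-05), with fold sizes of 1.62 and 1.64, and KO minus Het was -0.02 ± 0.064. The membrane-type genes Mmp16 and Mmp24 differed between KO and WT by -0.10 and 0.06 at the probe sets used, and neither of these probe sets passed the adjusted p threshold in any comparison. Another Mmp16 probe set was higher in Het than in WT by 0.31 and another Mmp24 probe set by 0.14 (limma adjusted p = 0.046 and 0.049 over all probe sets).

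Among the remaining Mmp genes differences were small. Mmp11, the stromelysin 3 gene, read 9.62, 9.57 and 9.61 on KO arrays, 9.65, 9.75 and 9.89 on Het arrays, and 9.85, 9.91 and 9.82 on WT arrays, so KO lay below WT (-0.26 ± 0.057, limma adjusted p = 0.0025) and Het overlapped WT. Mmp19 was lower than in WT by -0.24 ± 0.050 in KO and by -0.19 ± 0.050 in Het (limma adjusted p = 0.0022 and 0.015), and its second probe set went the same way. Mmp23 read 11.42 on each of the 3 WT arrays, from 11.29 to 11.39 on KO arrays and from 11.40 to 11.56 on Het arrays. Its KO difference from WT of -0.09 did not pass (limma adjusted p = 0.14). KO minus Het was -0.15 ± 0.048 (limma adjusted p = 0.024), which did not pass in the fit over all probe sets (limma adjusted p = 0.073). In that fit a second Mmp23 probe set was higher in Het than in WT by 0.23 (limma adjusted p = 0.019). Its KO minus WT difference was 0.04, and its KO minus Het difference was -0.18 (limma adjusted p = 0.039).

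Adamts3 encodes a procollagen N-propeptidase that also takes part in the activation of the lymphatic growth factor VEGF-C. It read 7.66, 7.46 and 7.31 on KO arrays, 7.74, 7.81 and 7.80 on Het arrays, and 8.78, 8.35 and 8.68 on WT arrays. WT was clear of both other lines, and the KO and Het arrays were separated by less than 0.1. Adamts3 fell in KO by -1.13 ± 0.11 from WT (limma adjusted p = 5.2e-06), a fold size of 2.19. The Adamts3 difference of Het from WT was -0.82 ± 0.11 (limma adjusted p = 2.2e-04), a fold size of 1.77, and KO minus Het was -0.31 ± 0.11 (limma adjusted p = 0.031). With the values of the fit over all probe sets the last difference did not pass (limma adjusted p = 0.068). A second Adamts3 probe set lay between 4.35 and 4.51 on all 9 arrays, under the low-value limit.

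Adamts12 and Adamts7 encode proteases that can cut the cartilage protein Comp. Adamts12 read 11.52, 11.52 and 11.46 on KO arrays, 11.02, 11.04 and 10.94 on Het arrays, and 10.57, 10.49 and 10.49 on WT arrays. The 3 lines were separated, with WT lowest and Het midway. Its KO minus WT difference of 0.98 ± 0.044 (limma adjusted p = 1.1e-08) was 1.97-fold and was therefore not called, although it passed 2-fold without KO replicate 3 (1.002) or without WT replicate 1 (1.01). Het minus WT was 0.48 ± 0.044 and KO minus Het 0.50 ± 0.044, so the 2 steps were of nearly equal size. Adamts7 differed by -0.02 between KO and WT and by 0.09 between Het and WT, and neither passed. Comp itself fell in KO (-1.51 ± 0.075, limma adjusted p = 2.5e-08), to a mean of 6.21 just under the low-value limit. Comp is also in the chondrocyte list, of which 4 of 8 measured genes fell, and in the substrate list below. A part of Adamts12 or Adamts7 in the Comp difference was not tested.

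None of the proteoglycan-cutting members of the family was called. Adamts4 and Adamts5, the aggrecanases, were higher in KO. Adamts5 read 12.13, 12.07 and 12.02 on KO arrays, 11.65, 11.60 and 11.69 on Het arrays, and 11.77, 11.76 and 11.77 on WT arrays, with Het lowest. Its KO minus WT difference was 0.31 ± 0.041 (limma adjusted p = 8.8e-05), and the 3 Adamts5 probe sets past the filter gave 0.20 to 0.38. For Adamts4 the difference was 0.26 ± 0.039 (limma adjusted p = 2.0e-04), and its second probe set gave 0.31. Adamts8 was higher as well (0.44 ± 0.093, limma adjusted p = 0.0021), whereas Adamts9 was lower (-0.35 ± 0.052, limma adjusted p = 1.6e-04) with a second probe set at -0.08.

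Adamts1 and Adamts15 set the Het line apart from both other lines. Adamts1, whose protease cuts versican and aggrecan, read 10.67, 10.68 and 10.67 on KO arrays, 10.20, 10.19 and 10.26 on Het arrays, and 10.76, 10.74 and 10.80 on WT arrays. Het was below WT by -0.55 ± 0.038 (limma adjusted p = 2.8e-06), while KO minus WT was -0.09 ± 0.038 and did not pass (limma adjusted p = 0.066). Adamts15 read 7.05, 6.96 and 6.995 on KO arrays, 7.63, 7.61 and 7.66 on Het arrays, and 7.27, 7.01 and 7.24 on WT arrays. Here Het was highest, above WT by 0.46 ± 0.062 (limma adjusted p = 2.8e-04) and above KO, with KO minus Het at -0.63 ± 0.062 (limma adjusted p = 1.0e-05), a fold size of 1.55. None of these Het differences reached 2-fold. The Het arrays also stood apart in a measure of RNA quality, the difference between the 3′ and 5′ control probe sets: for Gapdh it was -0.070 ± 0.032 in KO, -0.0020 ± 0.0059 in Het and -0.077 ± 0.0097 in WT, and for actin 0.073 ± 0.019 in KO, 0.11 ± 0.015 in Het and 0.072 ± 0.011 in WT (SD, n = 3). Its part in the Het values of Adamts1, Adamts15, Timp3 and other members was not tested.

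Adamts10 and Adamts6 encode related proteases that act on fibrillin microfibrils. Adamts10 read 10.72, 10.58 and 10.58 on KO arrays, 10.12, 10.33 and 10.38 on Het arrays, and 10.12, 9.998 and 10.05 on WT arrays. KO was above both other lines (KO minus WT 0.57 ± 0.070, limma adjusted p = 4.0e-05), and its second probe set gave 0.48. Adamts6 was higher in KO than in WT at both probe sets (0.35 and 0.58), but its probe sets went opposite ways in Het minus WT, with -0.13 at the probe set used and 0.55 at the other. The direction of Adamts6 in Het therefore depends on the probe set. Adamts16 had values from 6.98 to 7.25 in all lines, and KO was lower than Het by -0.16 ± 0.054 (limma adjusted p = 0.030). In the fit over all probe sets neither Adamts16 probe set passed in that comparison (limma adjusted p = 0.080 and 0.36). Adamts18, Adamts19 and Adamts20 were below the filter, and of these Adamts20 read 5.64, 5.41 and 5.25 on KO arrays, 4.86, 4.94 and 4.95 on Het arrays, and 5.02, 4.89 and 5.02 on WT arrays, all under the low-value limit. In the fit over all probe sets the Adamts20 difference of KO from WT, 0.46 ± 0.089, passed short of 2-fold (limma adjusted p = 0.0030). It is a difference between low signals.

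No Timp gene was called. Timp1, the soluble inhibitor that many growth factors induce, read 13.54, 13.53 and 13.54 on KO arrays, 13.25, 13.32 and 13.32 on Het arrays, and 13.08, 13.13 and 13.06 on WT arrays. The lines were separated, with KO highest. Its KO minus WT difference was 0.44 ± 0.038 (limma adjusted p = 2.2e-06) and its Het minus WT difference 0.20 ± 0.038 (limma adjusted p = 0.0022), a fold size of 1.36 in KO. Timp2, which binds Mmp14 in the activation of pro-Mmp2, read 13.71, 13.65 and 13.67 on KO arrays, 13.63, 13.61 and 13.63 on Het arrays, and 13.72, 13.72 and 13.70 on WT arrays. KO and WT overlapped, and the difference was -0.04 ± 0.035 (limma adjusted p = 0.37). This probe set can detect several transcripts, and without such probe sets the sign turned (0.12, limma adjusted p = 0.0145). The 5 Timp2 probe sets past the filter ran from -0.09 to 0.15 in KO minus WT and from -0.50 to -0.02 in Het minus WT.

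Timp3 is the inhibitor that binds to the matrix and also blocks ADAMTS enzymes. It read 12.74, 12.62 and 12.58 on KO arrays, 12.96, 13.02 and 12.94 on Het arrays, and 12.78, 12.65 and 12.68 on WT arrays. Het was above both other lines, by 0.27 ± 0.052 over WT (limma adjusted p = 0.0025), while KO and WT overlapped. Of the 4 Timp3 probe sets, the others gave Het minus WT differences of 0.17, 0.02 and -0.29, in order of falling mean. None of these passed in the fit over all probe sets (limma adjusted p = 0.079, 0.84 and 0.067), and only the dimmest went the other way. Timp4 was below the filter, with 5.50, 5.48 and 5.46 on KO arrays, 5.81, 5.74 and 5.80 on Het arrays, and 5.62, 5.57 and 5.62 on WT arrays at its brighter probe set.

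**Figure D4:**
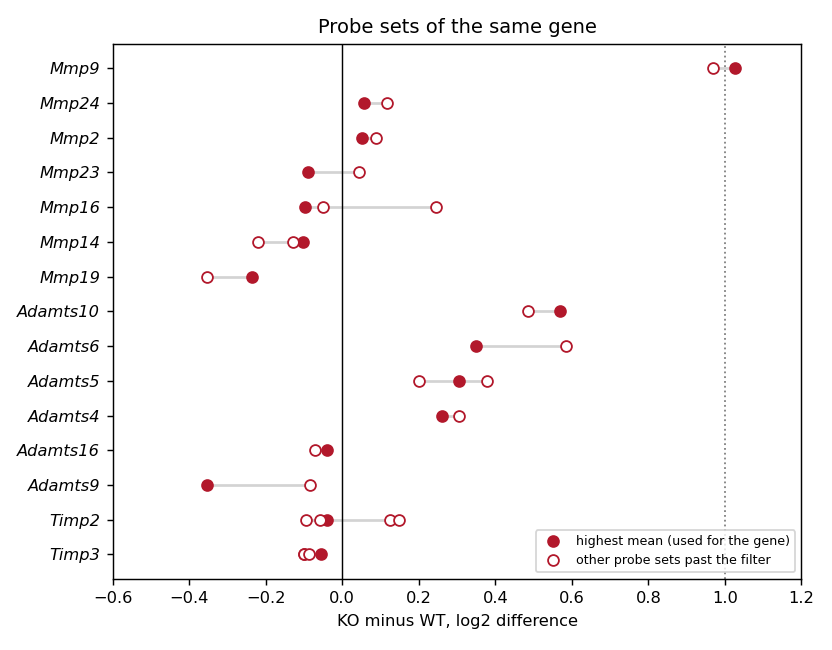
KO minus WT log2 difference (x axis) for each probe set past the low-value filter of the 15 member genes with several such probe sets (rows); filled circles are the probe sets with the highest mean and open circles the others, and the dotted line marks 2-fold. Both Mmp9 probe sets lie close to 2-fold, and the probe sets of Mmp23, Mmp16 and Timp2 fall on both sides of 0.

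Several probe sets past the filter measured 15 of the genes. In KO minus WT all probe sets of a gene had the same sign in 12 of the 15, and Mmp23, Mmp16 and Timp2 were the exceptions. No gene had probe sets that passed the adjusted p threshold in opposite directions in any of the 3 comparisons.

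Neither of the other comparisons had a called member. Between Het and WT 0 of 27 genes were called, against 0.255% of all genes. An unadjusted limma p below 0.05 was found for 19 members and for 44.3% of all genes. At the adjusted p threshold 7 members were higher and 7 lower in Het, against 13.4% and 21.0% of all genes. The largest Het differences were those of Adamts3 (-0.82), Mmp3 (-0.78) and Mmp17 (0.72). Between KO and Het 0 of 27 were called, against 0.625% of all genes called higher and 1.37% called lower in KO. Here too 19 members had an unadjusted limma p below 0.05, against 57.4% of all genes. At the adjusted p threshold 11 were higher and 8 lower in KO, against 23.7% and 28.6% of all genes. Adamts members made up 7 of those 11 higher and 4 of those 8 lower genes, and 12 of the 27 genes tested. The 3 comparisons share arrays and are not independent.

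A graded order on every array was found for 6 of the 27 genes. Mmp9, Adamts12, Adamts10 and Timp1 were higher in KO than in Het and higher in Het than in WT, an order that 5.41% of all genes had. For Adamts10 the order of Het and WT rested on arrays at 10.119 and 10.115, its second probe set gave -0.14 for Het minus WT, and the mean of its probe sets gave 0.04 (limma adjusted p = 0.70). Mmp3 and Adamts3 had the opposite order, as did 8.53% of all genes.

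Genes that act with these proteases were examined as lists. The plasminogen system holds the protease plasmin, which activates several Mmp precursors. Of its list 8 genes were measured. A further 6, among them the plasminogen gene Plg and the urokinase gene Plau, were below the filter. Of the 8 measured genes 0 were called in KO against WT (list median 0.01). At the adjusted p threshold 6 of the 8 passed, against 53.1% of all genes. The urokinase receptor gene Plaur came nearest (0.98 ± 0.043, limma adjusted p = 9.3e-09), followed by the activator gene Plat (0.53 ± 0.042). Plaur passed 2-fold with quantile normalization (1.0014) or without KO replicate 2 (1.0001). Among 22 measured regulators of metalloproteinases 4 rose, 1 fell and 17 were not called (median 0.01). Of all genes 0.988% were called higher and 2.58% lower in KO than in WT. At the adjusted p threshold 17 of the 22 regulators passed, against 53.1% of all genes, and 3 more were below the filter. A2m, the broad protease trap alpha-2-macroglobulin, fell (-2.29 ± 0.13, limma adjusted p = 6.0e-08), with a KO mean of 5.99 under the low-value limit. Tfpi2, a serine protease inhibitor of the matrix, rose (1.32 ± 0.096, limma adjusted p = 5.8e-07) above Het and WT means under that limit. Pcolce2, which enhances procollagen C-propeptide removal, also rose (1.15), as did the hyaluronan receptor gene Cd44 (1.06, or 0.996 with the mean of its probe sets) and the caveolin gene Cav1 (1.03).

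Of 6 measured ADAMTS-like genes, relatives without a protease domain, 0 were called and 3 passed the adjusted p threshold, against 53.1% of all genes. Adamtsl3 was lower in KO than in WT by -0.70 ± 0.039 (limma adjusted p = 5.5e-08) and Adamtsl2 higher by 0.25. Among 27 measured substrates of these enzymes 4 fell, 0 rose and 23 were not called (median -0.06). Besides Lum, Fmod and Comp these included Ncan, the gene of the proteoglycan neurocan (-1.70 ± 0.088, limma adjusted p = 3.4e-08). Of all genes 2.58% were called lower and 0.988% higher in KO than in WT. At the adjusted p threshold 19 of the 27 substrates passed, against 53.1% of all genes, and 2 more were below the filter.

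**Figure D5:**
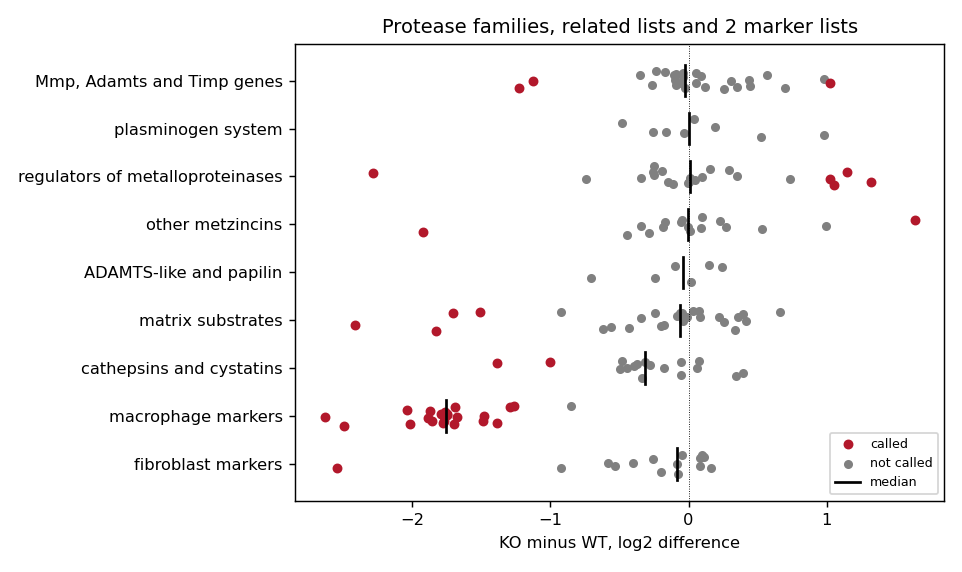
KO minus WT log2 difference (x axis) of each measured gene (points) in the member families, in lists of related genes and in 2 marker lists (rows); red points were called, grey points were not, and black bars are list medians. The member families centre on -0.02 with 3 called genes, and the macrophage list lies at a median of -1.76 with 21 called.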

How the data were processed

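Expression arrays of 3 fibroblast lines, 3 arrays each, were used as 1 table of log2 values per probe set that the authors deposited. The base of the logarithm was read from the values. GCOS and Partek are named per the submitters' processing notes, and the background correction, normalization and summarization are not given in the sources used here. The 64 control probe sets were left out, symbols came from the platform annotation, and all 37 member symbols matched the RefSeq table of GRCm38.p6, whose promoter sequences were used. No positions of probe sets are given.

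Differences were tested with limma 3.58.1 (lmFit, eBayes) in R 4.3.3, with 3 lines and all 9 arrays, over 12962 genes and, separately, over 45037 probe sets, with Benjamini-Hochberg adjustment. The steps were tested on simulated data. Alternatives covered normalization, filters, choice of probe set, fold minimum, replicate block, variance model and left-out arrays. Replicate numbers did not pair the arrays: deviations of arrays with the same number correlated at -0.18 to 0.21. Every member may be named. Values on every array are given for called members, Timp genes, the brightest members and, chosen after their values were seen, others that differed. From other lists up to 4 called genes, or 2 where none was called, are named. Col1a1, Cav1, Bmp1, Plg, Plau, Pdgfrb, Kcnj8 and Abcc9 were named besides. Members and lists were chosen with earlier results of these data known. Arrays give no read depth, and their number limits the precision. Python 3.11.15 with matplotlib 3.10.9 made the plots.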

Additional observations from a re-analysis of the deposited data

How the results depend on the processing

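The 3 genes called between KO and WT kept their direction under each of the 18 alternatives that recomputed and tested them. Mmp3 ran from -1.29 to -1.12 and Adamts3 from -1.26 to -1.04, and both were called wherever tested. Mmp3 was not tested with the lowest 60% of probe sets left out. Mmp9 ran from 0.95 to 1.12 and was short of 2-fold without WT replicate 1 (0.95) and with the mean of its probe sets (0.998). Under these 18 alternatives, which leave out the lower fold minimum, 4 of 1437 values of member genes lost or gained a call: 2 of Mmp9 and 2 of Adamts12 (1.00 without KO replicate 3 and 1.01 without WT replicate 1). Passing the adjusted p threshold alone depended more on the setting. Of the 1437 values 80 passed it in the main fit only and 23 under the alternative only. In 27 others the sign turned with neither fit passing. The signs that turned with a passed test were Adamts6 between Het and WT with the mean of its probe sets (0.21) and Timp2 between KO and WT without probe sets that can detect several transcripts (0.12). With a 1.5-fold minimum 1241, 236 and 895 genes were called in KO against WT, Het against WT and KO against Het, among them 5, 3 and 2 member genes. In the fit over all 45037 probe sets the same minimum called 7, 4 and 5 of the 70 member probe sets, against 5.67%, 2.23% and 4.12% of all. With each array left out the member genes called between KO and WT numbered 3 to 4, and in both other comparisons 0. The replicate block left 3 member genes and 462 genes in all called between KO and WT, and 4 of 18 comparisons of an array with another line correlated best at its own number. The block changed no other call of a member. The low signal of Mmp3 and Mmp13 in KO limits what their sizes mean.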

Other observations

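Cathepsins, the lysosomal proteases, and their cystatin inhibitors were all above the low-value limit, 17 of 17 genes. Between KO and WT 15 of them were not called and 2 fell, and the list median was -0.31 against -0.03 over all genes. Of all genes 2.58% were called lower and 0.988% higher in KO. At the adjusted p threshold 13 of the 17 passed, against 53.1% of all genes. Ctss, a cathepsin of antigen-presenting cells, fell by 1.39 on the log2 scale, and the legumain gene Lgmn fell by 1.00. Ctss is also in the macrophage list, of which 21 of 22 genes were called lower in KO than in WT. Lgmn was short of 2-fold in several settings, with values down to -0.96 without WT replicate 2. Among 17 measured metzincin genes of the ADAM, astacin and pappalysin families 1 rose and 1 fell, beside the same shares of all genes. At the adjusted p threshold 10 of these 17 passed, and 6 more of the list were below the filter. Adam8, a protease gene of leukocytes, read on average 8.82 in KO, 10.33 in Het and 10.75 in WT and fell in KO (-1.92 ± 0.057 from WT, limma adjusted p = 4.8e-10). Tll1, a tolloid-like procollagen C-proteinase gene, averaged 9.70 in KO, 8.25 in Het and 8.06 in WT and rose (1.64 ± 0.077, limma adjusted p = 1.7e-08). The related gene Bmp1 differed by 0.27 between KO and WT and was not called.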
